A study of Rattus norvegicus with 32 samples.

Results

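Transcripts of TGF-beta signalling and of fibroblast activation were measured in the left ventricle of septic rats. The 10 genes described here are the ligands Tgfb1, Tgfb2 and Tgfb3, the receptor Tgfbr2, the inhibitory Smad7, and the fibroblast and myofibroblast genes Pdgfra, Acta2, Postn, Ctgf and Fn1. They were chosen with earlier results of these data known, so their counts beside the share of all probes are a description. Their probes were those whose gene name on the array equalled 1 of these symbols. The 10 genes were read by 14 of the 45598 non-control probes, and all 14 passed the filter on dim probes in both sexes.

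The data came from 32 Wistar rats, each with 1 array of its left ventricle taken 20 h after surgery. In each sex there were 5 sham rats, 5 rats with cecal ligation and puncture (CLP group) and 6 rats with CLP that then received landiolol, a β1-selective blocker with a brief action (CLP plus landiolol group). Sham and CLP rats received saline in its place. All hearts had been imaged in vivo and perfused ex vivo before they were frozen, so the shams carried those procedures too. The rats carried no transgene. The values are log2 intensities of 1-colour arrays, normalised within each sex, so levels are compared only between groups of 1 sex and never between probes.

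TGF-beta is secreted bound to a latency protein and is released from it by integrins or proteases. The free ligand binds TGFBR2, which recruits the type I receptor, and the complex phosphorylates SMAD2 and SMAD3. In the heart this signal is known for turning fibroblasts into contractile myofibroblasts that make collagen, and SMAD7 is a feedback inhibitor that the signal itself induces.

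Between 34920 and 43155 spots per array were well above background, and pairs of arrays of 1 sex correlated between 0.93 and 0.989. The 10 cardiomyocyte markers were all kept, and none of them passed the test in any comparison. Of all probes, between 0.0945% and 7.81% passed, depending on the comparison. Each sex was hybridised on 2 slides of its own, and all 3 groups of a sex were on both. The arrays stood in 2 rows of each slide. In females the 5 sham arrays were all in the first row and the 6 CLP plus landiolol arrays all in the second, so row and group cannot be told apart in that comparison except through the CLP arrays, 3 in the first row and 2 in the second.

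The receptor Tgfbr2 rose with CLP in both sexes, and Tgfb3 fell in males. Of the 10 genes, each counted by its brightest probe, 2 passed a false discovery rate (FDR) of 1% in CLP versus sham in males (Tgfbr2 higher, Tgfb3 lower), where 7.81% of all 25866 probes passed. In females 1 of the 10 passed (Tgfbr2 higher), where 3.63% of 25395 probes passed. Tgfb2 also rose in females, but on 2 of its 4 probes and not on its brightest. The median log2 fold change over the 10 genes was -0.20 in males and -0.12 in females, against 0.009 and -0.015 over all probes.

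**Figure D1:**
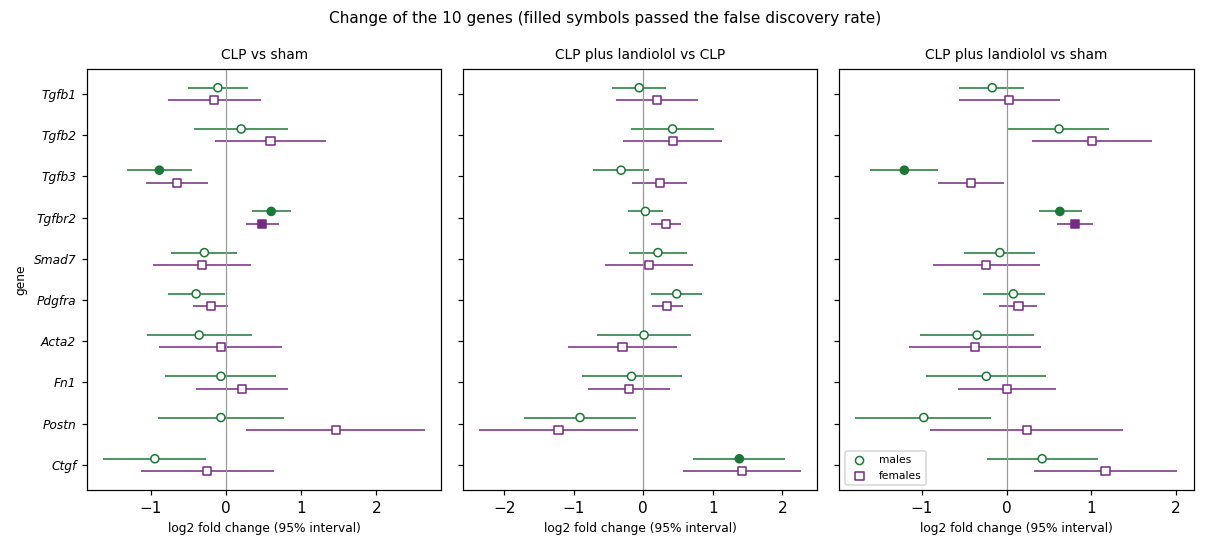
Log2 fold change of the 10 genes (y axis, brightest probe of each) in the 3 comparisons, in males (circles) and females (squares), with the 95% interval of the limma fit; filled symbols passed the FDR of the comparison. Tgfbr2 lay right of 0 against sham in both sexes, Tgfb3 left of 0, and Ctgf right of 0 in CLP plus landiolol versus CLP, with 1.38 in males and 1.42 in females; the Postn intervals include arrays on which it was not well above background.

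Among the ligands, Tgfb1, the main isoform of platelets and leukocytes, passed in no comparison. In males the 5 sham arrays ranged from 8.13 to 9.20, the 5 CLP arrays from 8.37 to 8.70 and the 6 CLP plus landiolol arrays from 8.10 to 8.74. In females the ranges were 7.90 to 8.94, 7.77 to 9.38 and 8.00 to 9.14. The groups overlapped throughout, and the log2 fold change of CLP versus sham was -0.11 in males (95% interval -0.51 to 0.29) and -0.16 in females (-0.78 to 0.46).

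Tgfb3, the isoform best known from palate closure and from mesenchymal cells, was the ligand with the clearest decrease in males. The male sham arrays read 9.80, 9.62, 10.22, 9.42 and 9.35, and the male CLP arrays 8.64, 8.74, 8.98, 8.78 and 8.81. Every CLP array was below every sham array, and Tgfb3 fell by 0.89 ± 0.20 (SE) on the log2 scale (limma adjusted p = 0.0066). The male CLP plus landiolol arrays had a lowest value of 7.82, a median of 8.54 and a highest value of 8.99, again all below the shams, with a fall of 1.21 ± 0.19 against sham (limma adjusted p = 0.000921). CLP plus landiolol and CLP arrays overlapped, with a log2 difference of -0.32 (95% interval -0.73 to 0.08, limma adjusted p = 0.452).

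In females the Tgfb3 shams read 9.01, 9.64, 9.46, 9.73 and 9.38, and the CLP arrays 9.29, 8.67, 8.99, 8.71 and 8.28. Here 4 of 5 CLP arrays were below the lowest sham, the groups overlapped, and the log2 difference of -0.66 (95% interval -1.07 to -0.24) missed the FDR of 1% (limma adjusted p = 0.0443). The CLP plus landiolol arrays lay between 8.75 and 9.42, a log2 difference of -0.42 from sham (limma adjusted p = 0.158). The difference between the sexes in the CLP response was 0.22 (females minus males, 95% interval -0.35 to 0.79), and it did not pass. The male CLP call is a narrow one. With the slide as a term its adjusted p was 0.0105 and with no filter it also missed, and it was lost in 8 of 16 fits that left out 1 array (sham replicates 1, 2 and 3 and each of the 5 CLP arrays), with adjusted p up to 0.0186. Within the slides the male CLP difference was -0.92 and -0.87.

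**Figure D2:**
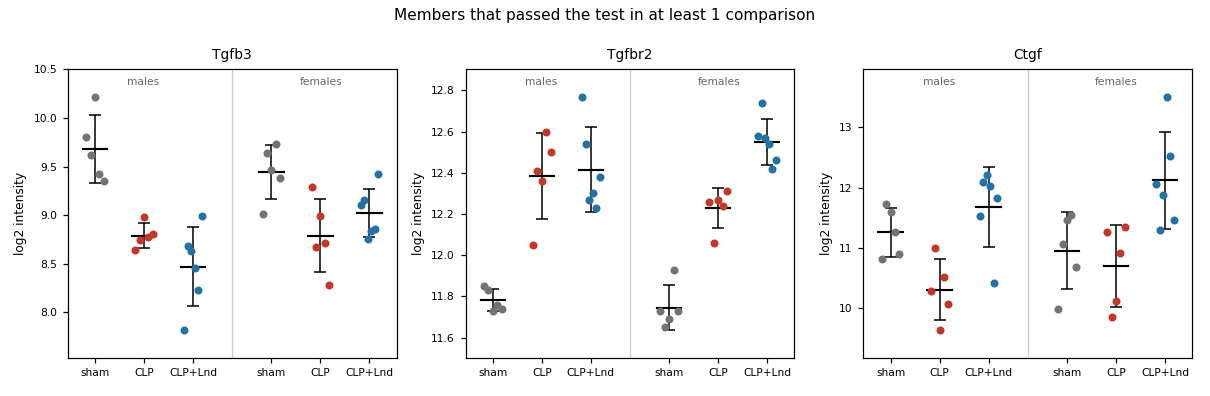
Log2 intensity (y axis) of Tgfb3, Tgfbr2 and Ctgf, brightest probe of each, in every array by sex and group; points are arrays, horizontal bars the group mean and error bars the SD (n = 5 sham, 5 CLP, 6 CLP plus landiolol, shown as CLP+Lnd). In males the CLP arrays of Tgfb3 (8.64 to 8.98) lay below the shams (9.35 to 10.22), the CLP arrays of Tgfbr2 lay above the shams in both sexes, and Ctgf was higher in most CLP plus landiolol arrays than in the CLP arrays.

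Tgfb2, the isoform prominent in the developing heart, was read by 4 probes that did not tell the same story. All 4 lie on the minus strand of chromosome 13 in the rn4 build of the array's annotation, A_44_P246538 at chr13:102719362-102719421, A_43_P12532 at chr13:102718952-102719009, A_44_P1001517 at chr13:102718139-102718198 and A_64_P109531 apart from them at chr13:102816865-102816924. No gene models of that build were used here, so exon or untranslated region is not given. The first 30 bases of each probe are shown because the result depends on which of them is read, and no part of them is marked.
A_43_P12532: ttttccctttgtctcggtatacggtaatta
A_44_P246538: attgcccttggaaaataaaacaggtgtata
A_44_P1001517: ttcattcattattttcgtgatattactgag
A_64_P109531: tgattttgcagcagcaacagcattgctacc

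On A_43_P12532 the female shams read 6.25, 6.82, 6.45, 6.71 and 6.04, and the female CLP arrays 7.38, 7.19, 7.22, 7.32 and 7.94. Every CLP array exceeded every sham, and Tgfb2 rose by 0.96 ± 0.17 on the log2 scale (limma adjusted p = 0.00268). The 6 CLP plus landiolol arrays spanned 7.41 to 7.84 with a median of 7.56, a rise of 1.13 ± 0.17 over sham (limma adjusted p = 0.000487). The neighbouring probe A_44_P246538 gave 5.99, 6.20, 5.74, 6.30 and 6.06 in female shams and 6.92, 6.70, 6.96, 6.73 and 7.72 in female CLP arrays. The groups were again apart, with a rise of 0.95 ± 0.18 in CLP (limma adjusted p = 0.00334) and 1.26 ± 0.17 in CLP plus landiolol against sham (limma adjusted p = 0.000255).

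The other two probes did not pass. On A_44_P1001517, the brightest, the female shams spanned 7.51 to 8.37 and the CLP arrays 7.58 to 9.89, and only 2 of 5 CLP arrays were above all shams (log2 difference 0.59, 95% interval -0.15 to 1.33, limma adjusted p = 0.342). All 6 CLP plus landiolol arrays, from 8.58 to 9.51, were above all shams on this probe, with a difference of 1.01 that missed the FDR of 1% (limma adjusted p = 0.0581) and passed it when only those 2 groups were fitted (0.00667). On A_64_P109531 the shams spanned 6.94 to 7.71 and the CLP arrays 7.39 to 10.64 (difference 1.01, 95% interval -0.05 to 2.06, limma adjusted p = 0.243).

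Female CLP replicate 5 was the highest CLP array on all 4 Tgfb2 probes. Without it the CLP differences were 0.82 and 0.77 on A_43_P12532 and A_44_P246538, both still past the test (limma adjusted p 0.00452 and 0.00243), but 0.26 and 0.46 on the other two. With the slide row in the model the 2 probes no longer passed in either comparison with sham, at 0.81 and 0.80 in CLP (limma adjusted p 0.0256 and 0.03) and 0.76 and 0.90 in CLP plus landiolol (0.367 and 0.288). In CLP they also missed the FDR of 1% when only the 2 groups were fitted (0.0186 and 0.0237). Normexp background correction lowered the differences to 0.59 and 0.51 in CLP, where A_44_P246538 no longer passed (0.0124), and to 0.71 and 0.69 in CLP plus landiolol. The CLP call of A_44_P246538 was also lost without sham replicate 1 or 3.

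In males all 4 Tgfb2 probes had a higher mean in CLP than in sham and none passed. The differences were 0.70 on A_43_P12532, 0.65 on A_44_P246538, 0.20 on A_44_P1001517 and 0.85 on A_64_P109531, with limma adjusted p of 0.0544, 0.0117, 0.731 and 0.0823. The male shams of A_44_P246538 read 6.17, 6.22, 5.82, 5.57 and 6.23 and the CLP arrays 6.11, 6.84, 6.76, 6.62 and 6.92, so that 4 of 5 CLP arrays were above all shams. Over the 16 arrays of a sex A_43_P12532 and A_44_P246538 followed each other most closely (r = 0.75 in males and 0.94 in females), while A_43_P12532 and A_44_P1001517 had r = 0.08 in males and 0.73 in females. These correlations include the differences between groups and are given as a description. No Tgfb2 probe passed in CLP plus landiolol versus CLP in either sex.

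**Figure D3:**
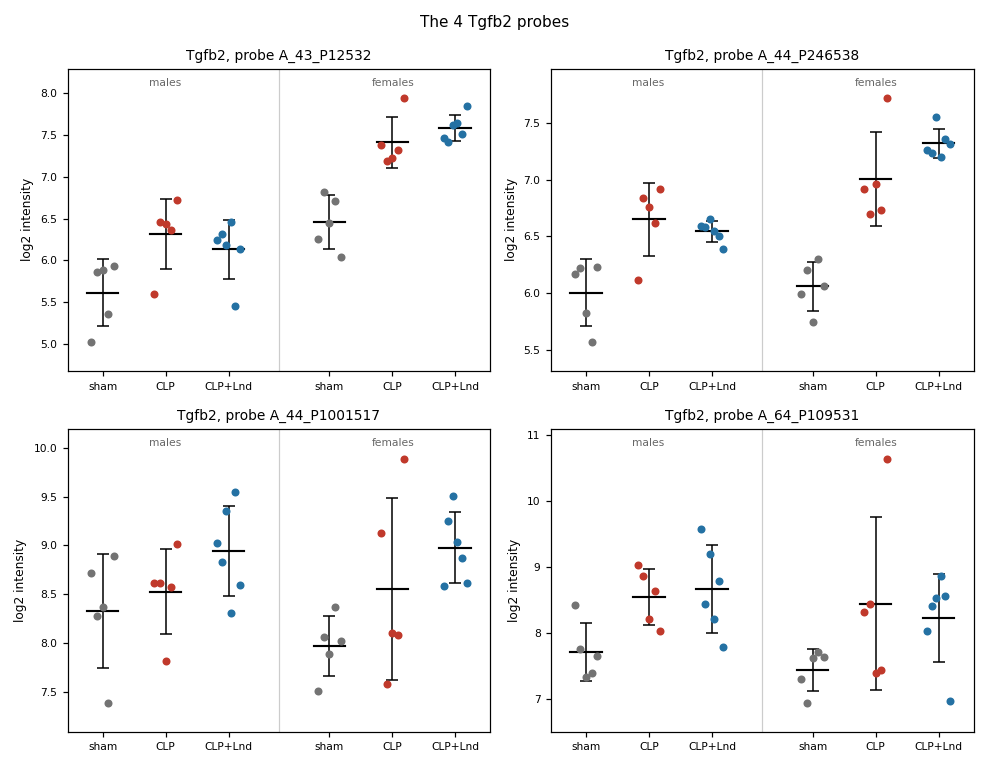
Log2 intensity (y axis) of the 4 Tgfb2 probes in every array by sex and group; points are arrays, horizontal bars the group mean and error bars the SD (n = 5, 5 and 6). On the upper 2 probes the female CLP and CLP plus landiolol (CLP+Lnd) arrays lie above all female shams, while on the lower 2 the female CLP arrays overlap the shams and reach up to 9.89 and 10.64.

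Tgfbr2 encodes the type II receptor that all 3 ligands need. It was read by 2 probes on the minus strand of chromosome 8 (rn4), A_44_P1108700 at chr8:120591185-120591244, printed 10 times on the array, and A_64_P129315 at chr8:120593700-120593759. On the first, male shams read 11.85, 11.83, 11.73, 11.76 and 11.74 and male CLP arrays 12.05, 12.41, 12.36, 12.60 and 12.50. Female shams read 11.73, 11.65, 11.69, 11.93 and 11.73 and female CLP arrays 12.26, 12.06, 12.27, 12.24 and 12.31. In both sexes every CLP array was above every sham array, and the shams were tightly grouped, with an SD of 0.06 in males and 0.11 in females.

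Tgfbr2 rose in CLP by 0.60 ± 0.12 on the log2 scale in males (1.52-fold, limma adjusted p = 0.00361) and by 0.48 ± 0.11 in females (1.4-fold, limma adjusted p = 0.00895). The second probe gave 0.72 ± 0.19 in males (limma adjusted p = 0.0188, past 5% but not 1%) and 0.77 ± 0.16 in females (limma adjusted p = 0.00563), and its CLP arrays were also above all shams in both sexes. The 2 probes correlated with r = 0.82 in males and 0.85 in females over 16 arrays. The difference between the sexes in the CLP response was -0.12 (95% interval -0.42 to 0.18) on the first probe. The female call was lost with the slide as a term (limma adjusted p = 0.0132), with the row as a term (0.0521), with 75th percentile scaling (0.0199), with only 2 groups in the fit (0.0416) and in 14 of 16 fits without 1 array (all but those without sham replicate 4 or CLP replicate 2), where the difference stayed between 0.46 and 0.53. The female CLP call of the second probe was lost with only the 2 groups in the fit (0.0267), with the row as a term (0.0497) and in 6 of 16 fits without 1 array (sham replicates 1, 2, 4 and 5 and CLP replicates 3 and 4). In males the first probe passed in 12 of 16 fits without 1 array, and missed without sham replicate 3 or 5 or CLP replicate 4 or 5 (adjusted p up to 0.0125).

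The rise of Tgfbr2 over sham remained in the CLP plus landiolol groups. On A_44_P1108700 the male arrays had a lowest value of 12.23, a median of 12.34 and a highest value of 12.77, and the female arrays 12.42, 12.56 and 12.74, all above their shams. The log2 differences from sham were 0.63 ± 0.12 in males (limma adjusted p = 0.00309) and 0.81 ± 0.10 in females (1.75-fold, limma adjusted p = 0.000145). The second probe also passed in both sexes, with 0.85 in males (limma adjusted p = 0.00842) and 0.87 in females (limma adjusted p = 0.00145). With the row as a term the female differences were 0.73 and 0.52 (adjusted p 0.144 and 0.552). The male call of the second probe was lost with the slide (0.0123) or the row (0.0131) as a term, with no filter (0.0163), with only the 2 groups in the fit (0.0217) and in 12 of 16 fits without 1 array.

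Between CLP plus landiolol and CLP, the male Tgfbr2 arrays overlapped (difference 0.03, 95% interval -0.22 to 0.28). In females all 6 CLP plus landiolol arrays were above all 5 CLP arrays on A_44_P1108700, a difference of 0.32 (95% interval 0.11 to 0.54) that missed the FDR of 5% (limma adjusted p = 0.266). Groups without overlap occurred in 1.15% of all probes in that comparison, and the second probe did not show it (difference 0.10, 95% interval -0.22 to 0.42). The difference between the sexes in this response was 0.29 on the first probe (limma adjusted p = 0.972) and -0.03 on the second.

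Smad7, which blocks the activated type I receptor, passed in no comparison. Male shams spanned 11.07 to 11.81, CLP arrays 10.90 to 11.96 and CLP plus landiolol arrays 11.15 to 11.88. In females the spans were 11.22 to 12.10, 10.62 to 11.63 and 10.53 to 12.31. The log2 fold change of CLP versus sham was -0.29 in males (95% interval -0.73 to 0.15) and -0.32 in females (-0.98 to 0.33), so a decrease of either size was not told apart from no change.

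Ctgf, encoding a matricellular protein also named CCN2 that TGF-beta and the YAP-TEAD pathway induce, was the only one of the 10 genes to pass in CLP plus landiolol versus CLP. It did so in males, where 1.56% of all probes passed the FDR of 5%. Male shams read 10.82, 11.73, 11.59, 11.26 and 10.90 and male CLP arrays 10.29, 11, 9.64, 10.52 and 10.07. The 6 male CLP plus landiolol arrays had a lowest value of 10.41, a median of 11.92 and a highest value of 12.21. Thus 4 of 5 CLP arrays were below all shams and 5 of 6 CLP plus landiolol arrays were above all CLP arrays. Ctgf rose by 1.38 ± 0.31 with landiolol (2.60-fold, limma adjusted p = 0.0367), and the difference of CLP from sham, -0.95 ± 0.32, missed the FDR of 1% by limma (limma adjusted p = 0.0567) and passed it by SAM, a permutation method (0.00857).

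In females the Ctgf shams read 9.99, 11.06, 11.47, 11.55 and 10.68, the CLP arrays 11.26, 9.85, 10.12, 10.92 and 11.34, and the CLP plus landiolol arrays had a lowest value of 11.30, a median of 11.97 and a highest value of 13.51. Here too 5 of 6 CLP plus landiolol arrays were above all CLP arrays. The difference of 1.42 ± 0.4 was as large as in males but did not pass (limma adjusted p = 0.21), in a comparison where 0.0945% of all probes did. The difference between the sexes in this response was 0.07 (females minus males, 95% interval -1 to 1.15). With the row as a term the female difference was 0.99 (limma adjusted p = 0.922). Within the slides the landiolol difference was 1.64 and 1.12 in males and 1.77 and 1.18 in females. The male call was lost with the row as a term (adjusted p 0.0528), with only the 2 groups in the fit (0.0861), with no filter and in 8 of 16 fits without 1 array (CLP replicates 3, 4 and 5 and CLP plus landiolol replicates 1, 2, 3, 4 and 6), with the difference between 1.21 and 1.63 and adjusted p up to 0.113. Against sham, Ctgf in CLP plus landiolol differed by 0.42 in males (95% interval -0.23 to 1.08, limma adjusted p = 0.436). In females that difference was 1.17 (0.32 to 2.02, limma adjusted p = 0.0671), and between 0.46 and 1.18 over the alternatives. The female difference of CLP from sham was -0.25 (-1.14 to 0.64, limma adjusted p = 0.789).

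The 250 bases before the start of this gene (RefSeq symbol Ccn2) are shown because it was the member that passed the test with landiolol and the one whose upstream window held the most motif matches. The window is chr1:22624615-22624864 on the minus strand of GRCr8, from RefSeq. A RefSeq window was at hand for 9 of the 10 genes. Both strands were searched for 7 motifs. The CAGA box that SMAD proteins bind was searched as CAGACA. The AP-1 site, bound by the Fos and Jun factors, was searched as TGANTCA. The TEAD site, through which YAP acts, was searched as CATTCC. The cAMP response element was searched as TGACGTCA and the STAT site as TTCNNNGAA. The NF-kappaB site was searched too, and the TATA box of the core promoter was searched as TATAAA. No 2 matches overlapped in these windows. Capitals mark matches, and GGAATG is the TEAD site read on the other strand.
Ccn2: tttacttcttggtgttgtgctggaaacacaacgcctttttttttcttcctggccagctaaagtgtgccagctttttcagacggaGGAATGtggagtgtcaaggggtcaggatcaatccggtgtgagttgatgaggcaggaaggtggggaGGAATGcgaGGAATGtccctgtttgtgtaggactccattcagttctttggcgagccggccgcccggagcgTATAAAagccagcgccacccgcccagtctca

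The 3 CATTCC matches began 166, 101 and 92 bases before the start and the TATA box match 31 bases before it. CATTCC was held by 12.1% of the 33469 promoter windows in the table and TATAAA by 12.9%. Elsewhere among the 9 genes, Acta2 held 1 CAGACA (17.2% of windows) and 1 CATTCC, Pdgfra 1 TGANTCA (6.34% of windows), and Postn 1 TATAAA. The windows of Tgfb1, Tgfb2, Tgfb3, Tgfbr2 and Smad7 held none of the 7 motifs, and TGACGTCA, TTCNNNGAA and the NF-kappaB site, in 1.59%, 7.67% and 1.3% of windows, were in none of the 9. A match is a run of letters in this window and not a measured site.

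Pdgfra, the receptor that marks cardiac fibroblasts, passed in no comparison but differed with landiolol in the same direction in both sexes. Male CLP arrays read 10.77, 11.49, 11.17, 10.66 and 11.45 and the CLP plus landiolol arrays spanned 11.29 to 11.82 with a median of 11.59. The difference was 0.48 (95% interval 0.11 to 0.84, limma adjusted p = 0.196). In females the CLP arrays read 11.45, 11.25, 11.61, 11.37 and 11.36 and the CLP plus landiolol arrays spanned 11.60 to 12.03, with 5 of 6 above all CLP arrays (difference 0.34, 95% interval 0.12 to 0.57, limma adjusted p = 0.266). The difference of CLP from sham was -0.4 in males (95% interval -0.77 to -0.02, limma adjusted p = 0.155). In females it was -0.2 (-0.44 to 0.03, limma adjusted p = 0.299). CLP plus landiolol differed from sham by 0.08 in males and 0.14 in females.

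Acta2, the smooth muscle actin that marks myofibroblasts and vessel walls, and Fn1, the matrix protein fibronectin, varied within groups by as much as between them. Acta2 in males spanned 9.12 to 10.77 in sham, 8.57 to 9.90 in CLP and 8.90 to 10.26 in CLP plus landiolol, and in females 8.34 to 10.08, 8.55 to 10.17 and 8.35 to 9.48. The CLP difference was -0.36 in males (95% interval -1.05 to 0.34) and -0.07 in females (-0.89 to 0.75). Fn1 spanned 9.41 to 11.13, 9.16 to 11.16 and 9.64 to 10.44 in males and 9.45 to 10.61, 9.96 to 11.30 and 9.78 to 10.82 in females. Its CLP difference was -0.07 (-0.82 to 0.67) and 0.21 (-0.40 to 0.82).

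Postn, encoding periostin of activated fibroblasts, was the only dim member. It was well above background on all 5 male sham and all 5 male CLP arrays and on 3 of 6 male CLP plus landiolol arrays, but on 1 of 5 female sham, 4 of 5 female CLP and 2 of 6 female CLP plus landiolol arrays. In females it therefore passed the filter only through the CLP group. The female CLP arrays read 6.91, 4.56, 5.55, 7.56 and 3.98 against shams of 3.78, 4.96, 4.11, 4.35 and 4.07, so that 3 of 5 were above all shams. The CLP plus landiolol arrays spanned 3.62 to 5.26 in males and 4.01 to 5.74 in females, and both spans overlapped those of CLP. Postn passed the test in no comparison, and no size is given for differences from groups in which it was mostly not well above background.

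**Figure D4:**
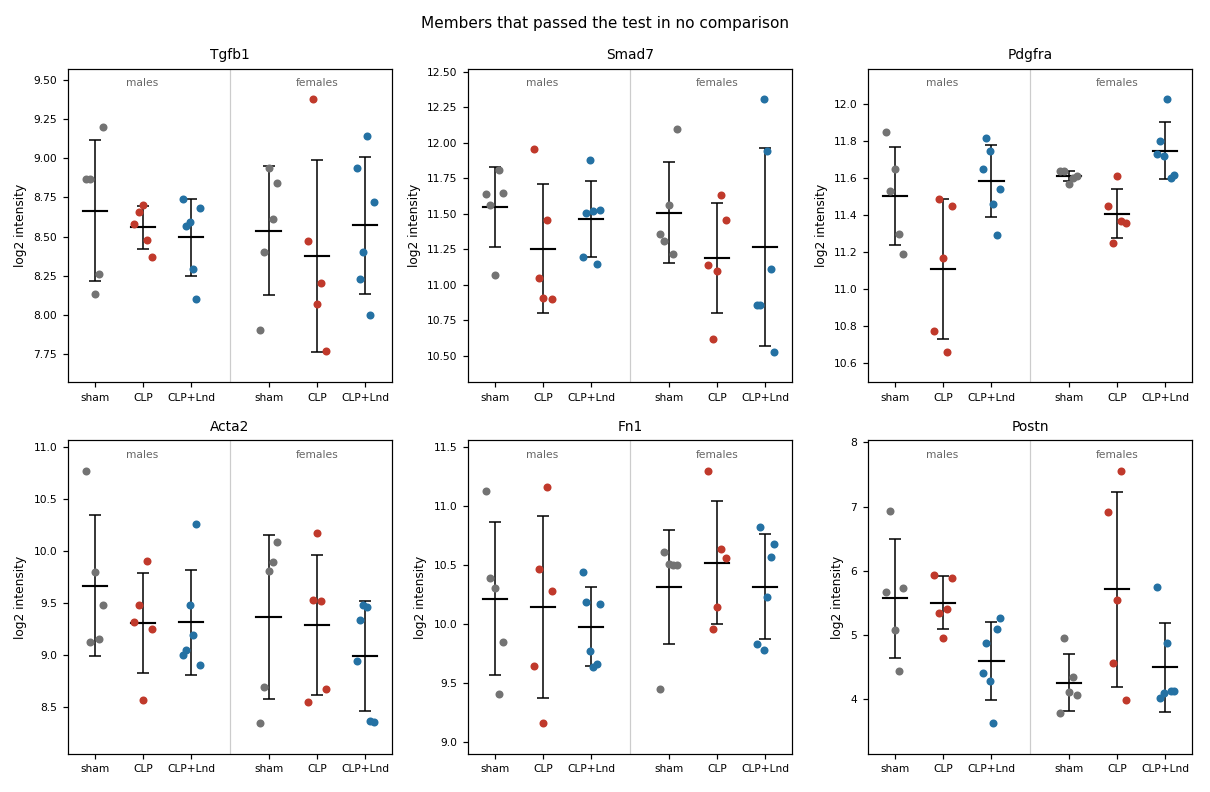
Log2 intensity (y axis) of Tgfb1, Smad7, Pdgfra, Acta2, Fn1 and Postn, brightest probe of each, in every array by sex and group; points are arrays, horizontal bars the group mean and error bars the SD (n = 5 sham, 5 CLP, 6 CLP plus landiolol, shown as CLP+Lnd). The groups overlap in all 6 panels, and the female CLP arrays of Postn spread from 3.98 to 7.56.

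Against sham, the CLP plus landiolol groups had 2 of the 10 genes past the FDR of 1% in males (Tgfbr2 higher, Tgfb3 lower), where 4.15% of all probes passed, and 1 in females (Tgfbr2 higher), where 5.25% did. Both comparisons of a sex use the same sham arrays. By separation of the groups, 2 of the 10 genes did not overlap in CLP versus sham in males (12.3% of all probes) and 1 in females (8.32%). In CLP plus landiolol versus sham it was 2 in males (7.79%) and 2 in females (9.74%), and in CLP plus landiolol versus CLP none in males (2.27%) and 1, Tgfbr2, in females. No gene and no probe of the array passed the FDR of 5% for a difference between males and females in CLP versus sham (0%, limma on 24769 probes, with 867 at an unadjusted p under 0.05) or in CLP plus landiolol versus CLP (0%, with 1217).

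The other genes of the pathway were taken from 6 lists with 111 genes, of which 98 were kept in males and 95 in females. The lists, too, were chosen with earlier results of these data known. In CLP versus sham 25 of the 98 passed in males, 9 higher and 16 lower, and 2 of 95 in females, both higher, beside 7.81% and 3.63% of all probes. The median log2 fold change was -0.26 in males and -0.03 in females. In CLP plus landiolol versus CLP 3 of 98 passed in males, all lower, and none of 95 in females by limma at the FDR of 5%. Of all probes, 1.56% passed there in males and 0.0945% in females.

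Matrix genes made up 12 of the 16 decreases in males. Of the 31 myofibroblast and matrix genes kept in males, 12 passed as lower in CLP and none as higher, beside 7.81% of all probes. The median was -0.99, and 4 of the 31 had a higher mean in CLP than in sham. Loxl1, a cross-linker of elastin, fell by 2.30 ± 0.34 on the log2 scale (limma adjusted p = 0.000366). Col1a1 and Col3a1 encode chains of the main fibrillar collagens. Col1a1 fell by 2.11 ± 0.38 (limma adjusted p = 0.00154). Col3a1 fell by 2.05 ± 0.36 (limma adjusted p = 0.00129). Mfap4, an elastic fibre protein, fell by 1.79 ± 0.31 (limma adjusted p = 0.00103). In females none of 30 matrix genes passed in CLP and the median was -0.41, with Loxl1 at -1.67 (limma adjusted p = 0.0873), Col1a1 at -1.61 (0.0239), Col3a1 at -1.20 (0.0491) and Mfap4 at -1.44 (0.0395).

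In CLP plus landiolol versus sham 7 of the 31 matrix genes passed as lower in males, with a median of -0.81, where 4.15% of all probes passed. The log2 fold change was -2.24 for Loxl1 (limma adjusted p = 0.000569), -1.79 for Mfap4 (0.00122), -1.4 for the elastic fibre gene Mfap5 (0.00268) and -1.29 for the collagen gene Col8a1 (0.00555). Tnc, encoding tenascin C of remodelling matrix, was not well above background on any male CLP plus landiolol array and was at least 1.45-fold lower there than in sham (limma adjusted p = 0.00756). That bound sets the group mean of sham against the dimmest signal still above background on each array. Tnc was well above background on 4 of 5 male shams and was not kept in females. It did not pass the male filter through the CLP plus landiolol group, and its test is tied to that filter. In females the count of matrix genes was 0 of 30 and the median -0.36. Leaving out 1 array moved the male count between 9 and 13 in CLP and between 3 and 10 in CLP plus landiolol, and the female counts between 0 and 2 and between 0 and 3. No matrix gene passed in CLP plus landiolol versus CLP in either sex by limma, where the medians were 0.09 and 0.03.

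**Figure D5:**
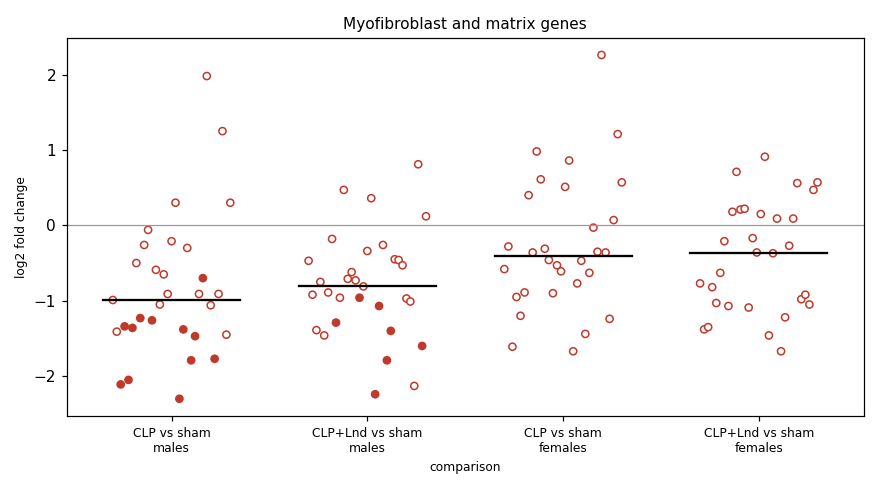
Log2 fold change against sham (y axis) of the myofibroblast and matrix genes (points, 31 genes in males and 30 in females) in CLP and CLP plus landiolol (CLP+Lnd), by sex; filled points passed the FDR of 1% and horizontal bars are medians; Tnc is drawn at its fitted value. The medians are -0.99, -0.81, -0.41 and -0.36 from left to right, and all filled points are below 0 and in males.

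Among the other lists, the largest increases in males were of ligand, receptor and inhibitor genes. Inhbb, the activin B subunit, rose by 2.14 ± 0.26 in male CLP (limma adjusted p = 8.28e-05) and was still 1.32 above sham in CLP plus landiolol (0.0038). Itgb8, an integrin chain that releases latent TGF-beta, rose by 1.97 ± 0.41 (limma adjusted p = 0.00427). Tgfbr3, the co-receptor betaglycan that presents TGFB2, rose by 1.29 ± 0.23 (limma adjusted p = 0.00144) and by 1 in CLP plus landiolol (0.00905), and was well above background on 4 of 5 male shams. Mstn, encoding myostatin, was not well above background on any male CLP array and was at least 2.08-fold lower than in sham (limma adjusted p = 0.00373). It was well above background on 4 of 5 male shams and was not kept in females. In males it therefore did not pass the filter through the CLP group, and its test is tied to that filter.

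Tgif1, a nuclear co-repressor of SMAD2 and SMAD3, and Acvr1b, an activin type I receptor, were the 2 pathway genes that rose with CLP in both sexes. Tgif1 rose by 2.12 ± 0.31 in males (limma adjusted p = 0.000323) and 1.53 ± 0.28 in females (0.00295). Acvr1b rose by 1.27 ± 0.19 (limma adjusted p = 0.000339) and 1.32 ± 0.25 (0.0039). Smad3, the SMAD that carries the TGF-beta signal, rose by 0.65 ± 0.13 in female CLP plus landiolol against sham (limma adjusted p = 0.00477), where Ldlrad4, an inhibitor of receptor-SMAD activation, fell by 0.90 (0.00266). In that comparison 3 of 95 pathway genes passed, beside 5.25% of all probes. Slide row and group cannot be told apart there except through the CLP arrays. No fit with the row as a term is given for these genes.

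The 3 genes that fell with landiolol against CLP in males were all ligand or activation genes. Itgb6, the epithelial integrin chain that releases latent TGF-beta, fell by 2.22 ± 0.41 (limma adjusted p = 0.0137). Inha, the inhibin alpha subunit, fell by 1.46 ± 0.35 (limma adjusted p = 0.0487). Gdf11, a relative of myostatin, fell by 0.67 ± 0.16 (limma adjusted p = 0.044). Itgb6 was well above background on 4 of the 6 male CLP plus landiolol arrays. Itgb6 also passed as lower against sham in female CLP plus landiolol (limma adjusted p = 0.00655), where it was well above background on 2 of 6 arrays and on all 5 shams. The limit of slide row in that comparison applies to Itgb6 too.

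In bulk ventricle, fewer cells of a type and less RNA per cell cannot be told apart, and markers of other cells moved in the same comparisons. The mean level of 12 fibroblast markers ranged from 10.93 to 11.53 in male sham and from 10.04 to 10.80 in male CLP arrays, with 4 of 12 lower and 1 higher past the test, and from 10.61 to 11.16 and 9.92 to 11.19 in females, with 1 of 12 lower. That of 12 smooth muscle and pericyte markers ranged from 10.16 to 10.88 and 9.36 to 9.78 in males, with 2 of 12 lower, and from 9.81 to 10.44 and 9.27 to 10.11 in females, also 2 of 12 lower. Of all probes, 7.81% passed in CLP versus sham in males and 3.63% in females. In male CLP plus landiolol the fibroblast mean ranged from 10.44 to 10.98 and the smooth muscle mean from 9.88 to 10.33, the latter above all male CLP arrays, with 1 of 12 smooth muscle markers higher than in CLP past the test. Of all probes, 1.56% passed in that comparison. In females the median smooth muscle mean was 9.7 in CLP and 9.73 in CLP plus landiolol. The female ranges overlapped, 9.27 to 10.11 and 9.35 to 9.93. The median female fibroblast mean was 10.28 in CLP and 10.33 in CLP plus landiolol. No marker of these 2 lists passed in CLP plus landiolol versus CLP in females, where 0.0945% of all probes passed. The Ctgf difference was 1.38 in males and 1.42 in females, the latter not past the test. The part of fibroblasts and smooth muscle in the rise of Ctgf was not tested. The part of these shifts in the fall of Tgfb3 and of the matrix genes was not tested. The marker lists share probes with the matrix list, Mfap5 in the fibroblast list and Tagln and Cnn1 in the smooth muscle list. The marker means are therefore not a separate observation from the matrix genes.

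Leukocyte markers were higher after CLP in both sexes, the comparisons in which Tgfbr2 rose. The mean of 11 macrophage and monocyte markers ranged from 9.89 to 10.21 in male sham and 10.66 to 11.25 in male CLP, and from 9.89 to 10.29 and 10.51 to 11 in females, with 4 and 3 of 11 higher past the test. Of 10 neutrophil markers 3 were kept in males and 4 in females, and their means went from 5.47 to 5.86 in male sham to 8.86 to 10.73 in CLP, and from 5.20 to 6.30 to 7.68 to 8.65 in females. S100a8, a neutrophil marker kept in males, was not well above background on any male sham array. It passed the male filter only through groups with CLP, so the neutrophil mean rests partly on a marker selected by its high signal there. The part of leukocytes in the rise of Tgfbr2 and Tgfb2 was not tested. Of 10 endothelial markers 1 was lower in each sex, and of the platelet markers 1 of 6 was higher in males and 0 of 4 in females. Of all probes, 7.81% passed in CLP versus sham in males and 3.63% in females. With so few markers, a count of 1 is not read as a result about those cells.

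Over the 16 arrays of each sex the genes whose pattern was most like that of Tgfbr2, by the lower of the 2 Pearson correlations, were Tmbim1 (0.903), Ell (0.889) and Siglec5 (0.879). For Tgfb3 they were Cd83 (0.826), Oaf (0.803) and Angptl2 (0.772), and for Ctgf Gatm (0.776), Epn3 (0.716) and Iqce (0.703). These were the highest among 17504 probes with a symbol, and arrays of 3 groups enter each correlation, so a shared response to CLP or landiolol is part of it. Among the members themselves Tgfb3 and Tgfbr2 had r = -0.80 in males and -0.44 in females. Their means differed from sham in opposite directions, so the group differences are part of this value. Pdgfra and Ctgf had r = 0.62 in each sex, and Tgfb2 and Tgfbr2 0.35 in males and 0.71 in females.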

How the data were processed

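Total RNA of the left ventricle (RNA integrity number above 8) was labelled with Cy3 and hybridised to 1-colour Agilent rat arrays, scanned and read with Agilent Feature Extraction 10.5 according to the submitters' processing notes. The authors deposited scanner files with background-corrected intensity per spot, and a table of quantile-normalised values on the log2 scale, whose column medians lie between 9.62 and 9.71. Coordinates are those of the array annotation (rn4). The files held 2 versions of that annotation, 1 per sex, which named all 14 probes alike.

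The deposited intensity was taken to log2, outlier spots were dropped (which left no value of the 14 probes missing), replicate spots were averaged and arrays were quantile-normalised within each sex. Probes well above background on 80% of the arrays of at least 1 group were kept (25866 in males, 25395 in females). Groups were compared with limma 3.58.1 in R on the 3 groups of a sex, with Benjamini-Hochberg adjustment over all kept probes, at an FDR of 1% against sham and 5% for CLP plus landiolol versus CLP. Differences between the sexes were tested on 32 arrays normalised together. The fits were tested on simulated data. Fold changes are log2 differences of the first group named minus the second, ± is the SE of the fit, and intervals cover 95%.

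Each gene was counted by the probe with the highest mean. All 10 members were tested in every comparison. Of the 6 pathway lists up to 5 rises and 5 falls were named per comparison, and for members called in CLP versus sham or CLP plus landiolol versus CLP the 3 most alike genes. Markers of 7 cell types were followed. The members and lists were chosen with earlier results of these data known. The labels give no replicate numbers, so arrays are numbered in the order of deposit, and each array is taken as 1 animal. The number of arrays limits the precision. Alternatives were other normalisations and background correction, the authors' table, other filters, slide and row terms, a variance trend, SAM (the kind of test the study used, here with 100 permutations, fewer than in the study), and leaving out each array.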

Additional observations from a re-analysis of the deposited data

Results flagged for a closer look

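Over the 14 probes and 6 groups, 84 sets of arrays were searched for a value that stands apart from its group by Dixon's criterion, and 4 were found, about the 1 in 20 that chance gives. On Tgfb2 probe A_43_P12532, male CLP plus landiolol replicate 5 read 5.46 against 6.14 to 6.46 in the other arrays of its group, and female CLP replicate 5 read 7.94 against 7.19 to 7.38. The same female array read 7.72 on Tgfb2 probe A_44_P246538 against 6.7 to 6.96. On the Fn1 probe, female sham replicate 1 read 9.45, below the other 4 arrays, the highest of which read 10.61. No member passed the test for a difference between the sexes.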

How the results depend on the processing

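The directions of all called members were kept under every alternative that was run, while several counts of called genes were not. In CLP versus sham in males the count of 2 became 1 with no filter and 1 with the slide as a term, and 3 by SAM, which added Ctgf. In females the count of 1 became 0 with 75th percentile scaling, with only the 2 groups in the fit, with the slide as a term and with the row as a term, and 2 when any kept probe counted or at an FDR of 5%. In CLP plus landiolol versus CLP in males the count of 1 became 0 with no filter, with only the 2 groups, with the row as a term and at an FDR of 1%. In CLP plus landiolol versus sham in females the count of 1 became 0 with the row as a term, and 2 with only the 2 groups, by SAM and when any kept probe counted. Leaving out 1 array gave 0 to 2 in males and 0 to 1 in females for CLP versus sham, 0 to 1 and 0 to 0 for CLP plus landiolol versus CLP, 1 to 2 and 1 to 1 against sham, and 0 to 0 for both differences between the sexes. The cause of these shifts was not tested, except that a stricter or looser FDR and counting any probe change the rule itself. The leave-one-out fits of the matrix genes were chosen after seeing the data. No paired analysis was run, because each array is taken as 1 animal and the groups were made of different rats. Postn, at or near background in females, has the least precise values. Over the single probes of the members, 80 refits lost a call, 10 gained one and 3379 did neither. Most of the 3379 were refits of probes that had not passed and so had no call to lose. They are therefore no measure of how stable the calls were. Values that had not passed could change sign, as those of Tgfb2 probe A_64_P109531 in CLP plus landiolol versus sham in females did with the row as a term. Over all probes, counts of calls moved by more than 1.5 times as follows. At the other FDR, 2021 and 923 in CLP versus sham became 4134 and 2329, 404 and 24 in CLP plus landiolol versus CLP became 86 and 0, and 1074 and 1332 against sham became 2538 and 3243 (males, then females). With the row as a term the female counts of 923, 24 and 1332 became 337, 1 and 20. With only the 2 groups, 923 became 538, 404 became 163 and 24 became 2. With no filter 404 became 246 and 24 became 5. SAM gave 833 in place of 404, 3 in place of 24 and 2919 in place of 1332. The female count of 24 also became 7 with 75th percentile scaling, 11 with both sexes normalised together and 9 with the filter over all arrays. Leaving out 1 array moved the 2021 between 1312 (male CLP replicate 4) and 2366, the 923 between 583 (female sham replicate 1) and 980, the 404 between 124 (male CLP replicate 4) and 1022 (male CLP replicate 1), the 24 between 0 and 129 (female CLP replicate 5), the 1074 between 633 (male sham replicate 4) and 1130, and the 1332 between 886 (female sham replicate 1) and 1625.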
